A study of Homo sapiens with 10 samples.

Results

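Collagen chain genes encode the alpha chains that wind together into the collagen molecules of the extracellular matrix. The members were taken by symbol alone, as every gene named COL, a number, the letter A and a number, and 44 of the 58381 gene rows in the deposited tables matched. By textbook family they were 11 fibrillar chains, 8 basement membrane chains, 5 beaded filament (type VI) chains, 10 FACIT chains, 3 network chains, 4 transmembrane chains and 3 others. FACIT chains belong to collagens that sit on the surface of fibrils and have interruptions in their helix.

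The cells were GIST-T1, an established human line grown from a metastasis of a gastrointestinal stromal tumour (GIST), and its derivatives in which a CTCF insulator had been disrupted in a background with intact succinate dehydrogenase. CTCF is a DNA-binding protein that marks boundaries between chromosome loops. The 5 groups were the control line, whose genotype is given as WT, and the lines InsE, InsF, InsG and InsH, with 2 libraries of polyadenylated RNA in each. All 10 shared the same parental line and the same serum-containing medium, and there was a single control line. What each letter stands for is not stated, nor whether a line was 1 clone or whether both libraries of a line were grown separately. The p-values therefore reflect the spread between libraries as deposited, and that spread may be technical.

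As background, fibrillar collagens such as types I, III and V bear tension in connective tissue. Type IV forms the sheet of the basement membrane, and type VI links cells to the fibrils around them. In the gut wall these proteins come mostly from fibroblasts and smooth muscle, and GISTs arise from the lineage of the interstitial cells of Cajal, the pacemaker cells that lie between the muscle layers.

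The libraries held 9.4 to 42.5 M (mega) expected counts, and collagen chains took 0.379% to 0.707% of them. GIST markers were present: all 8 of the list, KIT, ANO1, ETV1 and PRKCQ among them, were measured, with a summed level of 8581 to 8628 CPM (counts scaled to library size, with TMM factors) in control and 6158 to 6604 CPM in the lines. The control libraries differed little from each other. The chi-square per degree of freedom between the pair, over genes with at least 20 counts in the pair, was 1.39 in control and 6.59 to 7.69 in the lines, where 1 is sampling noise. Line libraries with the same replicate number deviated together, and 13 of the 29 tested collagen genes were higher in replicate 2 than in replicate 1 in all 4 lines. The share over all tested genes was not counted, so this does not set the collagens apart. Tests used edgeR on the counts of all genes, and a gene is said to have risen, fallen or changed where its p, adjusted over all 15554 tested genes, was under 0.05. In bulk RNA, fewer cells of a type and less RNA per cell cannot be told apart.

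Several chain genes lie as neighbours, and the start regions of those that the results turn on are shown first. COL4A1 (chromosome 13, 110148963 to 110307233, minus strand, hg38) and COL4A2 (110305812 to 110513209, plus strand) are transcribed away from each other, and both fell in InsE. COL4A6 and COL4A5 on chromosome X also lie head to head, with 0.346 kb between the annotated starts. COL19A1 on chromosome 6 and COL5A3 on chromosome 19 had the lowest levels in InsE relative to control. The sequences are from RefSeq on GRCh38.p14, 5′ to 3′ on the strand of the gene, with the first one, between both RefSeq starts at chr13:110307158-110307283, on the strand of COL4A2. Those of COL4A5 (chrX:108439588-108439837), COL19A1 (chr6:69866306-69866555) and COL5A3 (chr19:10010505-10010754, minus strand) are the 250 bases before the start. Capitals mark GC boxes (GGGCGG) and CCAAT boxes (CCAAT), found on either strand.
COL4A1 and COL4A2: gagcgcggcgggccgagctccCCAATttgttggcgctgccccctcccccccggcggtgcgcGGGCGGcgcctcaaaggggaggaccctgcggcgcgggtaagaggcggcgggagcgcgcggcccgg
COL4A5: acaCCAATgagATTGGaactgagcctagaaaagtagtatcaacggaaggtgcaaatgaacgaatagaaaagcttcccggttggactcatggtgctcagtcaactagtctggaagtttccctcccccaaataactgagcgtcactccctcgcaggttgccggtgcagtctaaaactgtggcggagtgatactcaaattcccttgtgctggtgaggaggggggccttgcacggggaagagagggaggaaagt
COL19A1: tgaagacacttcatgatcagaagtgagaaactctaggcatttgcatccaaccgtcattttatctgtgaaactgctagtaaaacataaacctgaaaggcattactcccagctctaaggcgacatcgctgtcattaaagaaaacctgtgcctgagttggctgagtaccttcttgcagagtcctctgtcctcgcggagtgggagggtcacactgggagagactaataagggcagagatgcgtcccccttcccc
COL5A3: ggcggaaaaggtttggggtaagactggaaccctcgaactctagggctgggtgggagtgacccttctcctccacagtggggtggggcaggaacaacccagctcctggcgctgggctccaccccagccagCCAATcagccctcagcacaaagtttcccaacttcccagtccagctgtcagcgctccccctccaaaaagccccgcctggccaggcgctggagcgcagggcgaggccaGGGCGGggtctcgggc
The region shared by COL4A1 and COL4A2 is 126 bases long, 80.2% G or C, and holds 1 GC box and 1 CCAAT box. The gene spans given above, from GENCODE, overlap (a gap of -1.422 kb), so the region lies between the starts in RefSeq alone. In windows of 126 bases before the start, a GC box stood in 34.6% and a CCAAT box in 21.1% of 35116 RefSeq promoters. The COL19A1 window held none of the motifs searched, and the COL5A3 window held 1 of each. The RefSeq table held 32 of the collagen genes, some with several start windows, and the other 12 were not searched. In windows of 250 bases the shares were 42.6% for the GC box, with 24 of the 44 windows of these 32 genes, and 32.0% for the CCAAT box, with 12 of 44 windows. TATAAA stood in 10.7% of all and in 8 of the collagen windows, TGANTCA in 6.6% and 1, and a CTCF core motif in 0.1% and none. A match is a run of letters and not a measured binding site.

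Of the 44 genes, 29 had enough counts to be tested (111 to 909844 counts over the 10 libraries) and 15 did not (0 to 59 counts, at most 16 in 1 library). COL3A1, the chain of type III collagen, was the highest of them by far at a mean of 1191 TPM (each gene's share of transcripts, corrected for length) over all libraries. It held 66.7% to 72.6% of the summed collagen TPM. Next came COL6A1 at 130 TPM, COL4A1 at 88.0 TPM, COL4A2 at 46.0 TPM, COL4A5 at 33.7 TPM and COL6A2 at 29.7 TPM. The ranges of COL4A5, COL6A2, COL27A1 (27.0 TPM), COL12A1 (24.7 TPM) and COL5A1 (24.2 TPM) over the libraries overlapped, so their order is not settled. COL1A1, the major chain of type I collagen in most connective tissue, stood at 10.5 TPM. Its usual partner chain gene COL1A2 had 4 counts in all 10 libraries together and none in control, where the limit that a count of 0 allows was 0.0608 CPM.

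**Figure D1:**
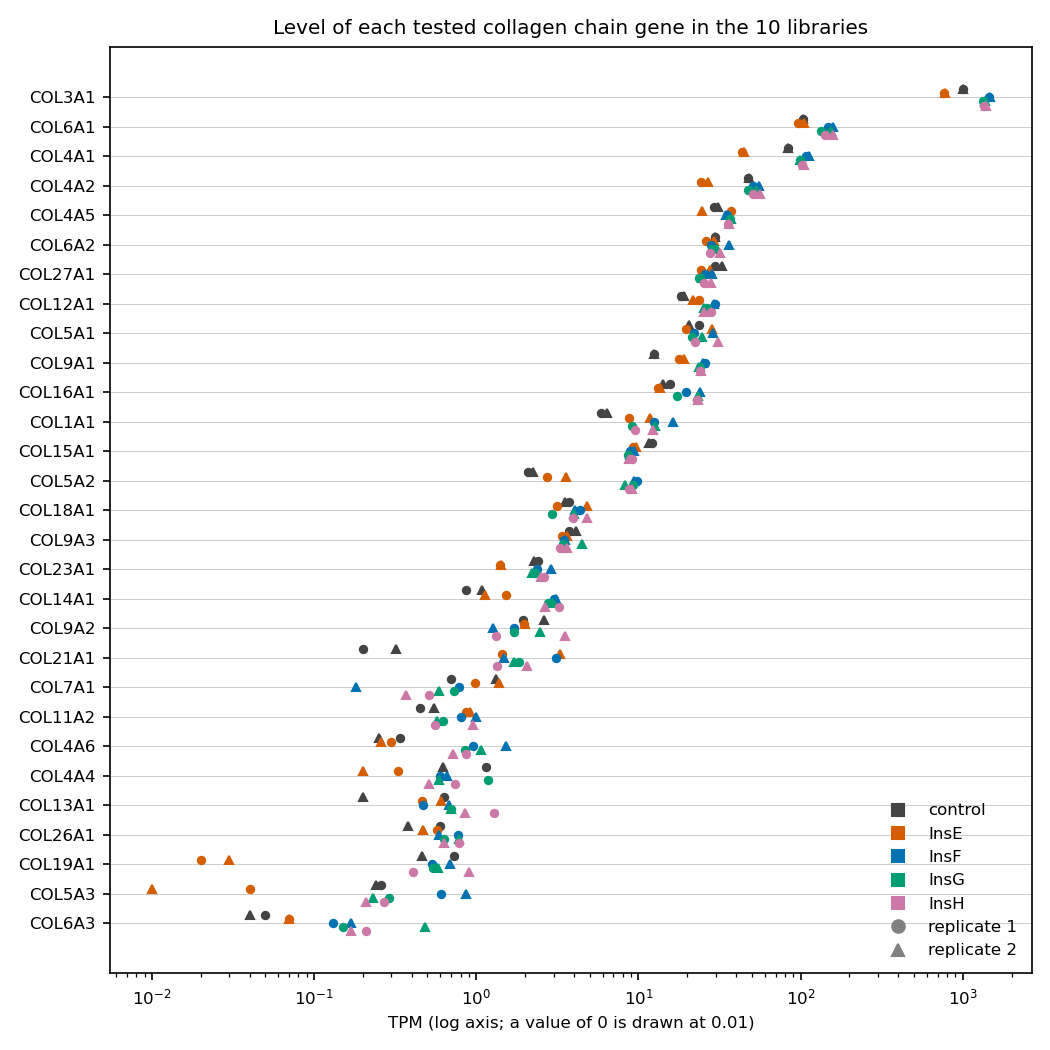
TPM of the 29 tested collagen chain genes in each of the 10 libraries on a log axis, ordered by the mean over all libraries, with colour for the group and circles and triangles for replicates 1 and 2. COL3A1 lies at 766 to 1472 TPM, apart from COL6A1 at 96.0 to 159 TPM, and COL19A1, COL5A3 and COL6A3 form the low end.

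The untested genes were the fibrillar COL1A2, COL2A1, COL11A1 and COL24A1, the basement membrane COL4A3, the beaded filament COL6A5 and COL6A6, the FACIT COL20A1 and COL22A1, the transmembrane COL17A1 and COL25A1, COL28A1, and all 3 network chains, COL8A1, COL8A2 and COL10A1. COL11A1 had no count in any library. COL24A1 had the most, with 59 counts in all. COL4A3, which shares its start region with COL4A4 at a distance of 0.111 kb, had 38 counts beside 779 for COL4A4.

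The summed collagen level was lower in InsE and higher in InsF, InsG and InsH than in control. The sum was 1436 and 1442 TPM in the control libraries, 1129 and 1157 TPM in InsE, 1990 and 2063 TPM in InsF, 1836 and 1917 TPM in InsG, then 1883 and 1967 TPM in InsH. No line overlapped control, and InsE alone lay below it. Without COL3A1 the sum was 432 and 433 TPM in control, 363 and 385 in InsE, and 506 to 591 in the other 3 lines, in the same order. That sum still holds COL4A1 and COL4A2. Chains outside the fibrillar and basement membrane families summed to 192 TPM in both control libraries and to 189 and 202 TPM in InsE, which spanned control. They summed to 245 to 288 TPM in the other lines. The lower sum in InsE was thus not shared by all families. The share of basement membrane chains was 12.4% in both control libraries, 10.4% and 9.58% in InsE and 10.5% to 10.8% in the others. Their summed level was 178 and 179 TPM in control, 118 and 111 TPM in InsE, and 196 to 218 TPM in the other 3 lines. It was thus below control in InsE alone, and the lower share elsewhere stands beside a higher total. These sums were not tested.

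In InsE 12 of the 29 tested genes changed, 4 higher and 8 lower. Over all tested genes, 23.2% were called there, 10.8% higher and 12.4% lower. InsF had 13 collagen genes higher and 1 lower, beside 22.3% of all genes, 10.9% higher and 11.3% lower. InsG had 9 higher and 1 lower, beside 20.3% of all genes, 9.86% higher and 10.5% lower. InsH had 11 higher and 1 lower, beside 18.4% of all genes, 8.95% higher and 9.46% lower. The median log2 change over the 29 genes was -0.08 for InsE, then 0.33, 0.15 and 0.23 for InsF, InsG and InsH, beside 0.01 over all tested genes in each line. Libraries did not overlap control for 20, 21, 25 and 20 of the 29 genes in InsE, InsF, InsG and InsH. Over all tested genes this held for 65.3%, 65.4%, 64.6% and 63.1%, so separation of 2 libraries from control is common. For all line libraries against control it was 8 of 29, beside 28% of all genes. For InsE against the other lines it was 19 of 29, beside 34.1%. The 4 comparisons share the control libraries. With the control pair summed to 1 sample, a choice made after seeing the data, the calls numbered 11, 10, 8 and 8 in the same order of lines. Leaving out control replicate 1 gave 9, 8, 8 and 7, and leaving out control replicate 2 gave 11, 9, 9 and 9.

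By pattern, COL5A2, COL4A5, COL9A1 and COL21A1 rose in all 4 lines and COL15A1 fell in all 4. COL3A1 rose in InsF, InsG and InsH and fell in InsE. COL4A6, COL12A1 and COL14A1 rose in those 3 lines, with no call in InsE. COL4A2, COL4A4, COL19A1 and COL23A1 fell in InsE and were not called in the others. COL4A1 rose in InsF and InsH and fell in InsE, and COL5A3 rose in InsF and fell in InsE. COL6A1 and COL16A1 rose in InsF and InsH, COL1A1 in InsF alone and COL6A3 in InsG alone. A further 10 tested genes were called in no line. How many of all tested genes had each pattern was not counted, so the patterns do not set the collagens apart.

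**Figure D2:**
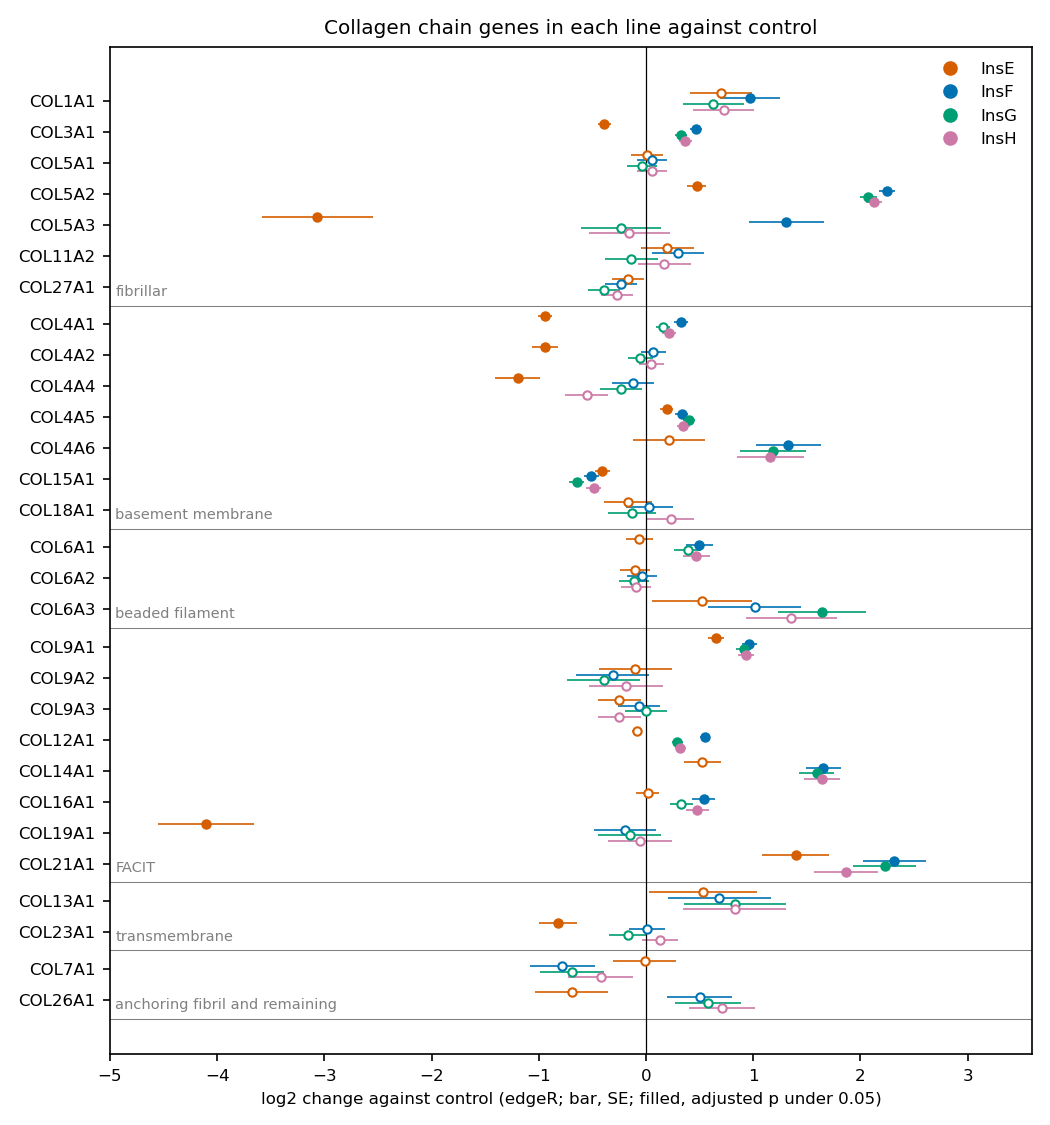
log2 change of each tested collagen chain gene in InsE, InsF, InsG and InsH against control, by family, with bars for the SE and filled points for adjusted p under 0.05 (edgeR, 2 libraries per group). COL5A2 lies above 2 in InsF, InsG and InsH and at 0.47 in InsE, while COL19A1 and COL5A3 lie at -4.11 and -3.07 in InsE.

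Among the fibrillar chains, COL3A1 and COL5A2, whose genes lie tail to tail on chromosome 2 (188974320 to 189012746, plus strand, and 189031896 to 189225312, minus strand, hg38) with 19.1 kb between them, changed in every line. COL3A1 stood at 3623 and 3632 CPM in control, 2689 and 2852 in InsE, 4831 and 5181 in InsF, 4382 and 4723 in InsG, then 4493 and 4855 in InsH. InsE was below control and the other 3 lines above it, with no overlap. On the log2 scale COL3A1 changed by -0.39 ± 0.06 (SE, edgeR adjusted p = 0.0015) in InsE and by 0.47 in InsF, 0.33 in InsG and 0.37 in InsH (edgeR adjusted p = 0.00055, 0.0043 and 0.0024). For the mean of the 4 lines it was 0.19 ± 0.05 (edgeR adjusted p = 0.014), a call lost without control replicate 1 (0.13) or 2 (0.115).

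COL5A2, a chain of type V collagen, which sets the diameter of type I and III fibrils, had the largest rise among the fibrillar chains. Its level was 8.65 and 9.03 CPM in control, 12.0 and 12.7 in InsE, 41.6 and 42.2 in InsF, 37.7 and 36.4 in InsG, then 37.0 and 40.3 in InsH. All line libraries exceeded control, and those of InsE lay far below the other lines. COL5A2 rose on the log2 scale by 0.47 ± 0.09 in InsE (edgeR adjusted p = 0.0039) and 2.25 ± 0.08, 2.07 and 2.13 in InsF, InsG and InsH (edgeR adjusted p = 2.5e-07, 4.9e-07 and 4.2e-07). On log2(TPM + 1) and log2(TPM + 0.1) the call in InsE missed the threshold (limma adjusted p = 0.0981 and 0.0755).

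COL5A1, the chain that type V trimers usually need, did not pass in any line. It stood at 110 and 111 CPM in control and at 94.1 to 125 CPM in the line libraries, which spanned control. COL5A3, a rarer chain of the same type, had few counts: 32 and 19 in control, 5 and 0 in InsE, 67 and 42 in InsF, 37 and 10 in InsG, then 23 and 10 in InsH. InsE lay below control and InsF above it. Its log2 change was -3.07 ± 0.52 in InsE (edgeR adjusted p = 0.0027) and 1.31 ± 0.35 in InsF (edgeR adjusted p = 0.025), the latter lost with DESeq2 (0.134) and without control replicate 1 (0.133) or 2 (0.143) or InsF replicate 1 (0.0648) or 2 (0.109). The value in InsE ran from -7.46 without InsE replicate 1 to -0.29 on log2(TPM + 1), where the call missed the threshold (limma adjusted p = 0.127). Over the pair of libraries control was 8.41 times InsE, with a 95% interval from counting of 3.38 to 27.0, and the 0 of InsE replicate 2 allows up to 0.317 CPM.

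COL1A1 was 15.6 and 15.1 CPM in control, 20.1 and 32.4 in InsE, 26.6 and 34.5 in InsF, 19.97 and 29.4 in InsG, then 21.6 and 30.2 in InsH. Every line library was above control, but replicate 2 exceeded replicate 1 by 0.37 to 0.68 on the log2 scale in the lines. COL1A1 passed in InsF (0.97 ± 0.28, edgeR adjusted p = 0.043) and for the mean of the lines (0.76 ± 0.23, edgeR adjusted p = 0.045). Both calls were lost without control replicate 1 (0.165 and 0.208) or 2 (0.16 and 0.204). That of InsF was also lost without InsF replicate 1 (0.0731) or 2 (0.169), and that of the mean without InsF replicate 1 (0.0516) or 2 (0.0684), InsG replicate 2 (0.0517) or InsH replicate 2 (0.0634). DESeq2 called COL1A1 in InsE, InsG and InsH too (adjusted p = 0.0122, 0.0341 and 0.0178), as did edgeR without a filter on low counts. COL11A2, a chain of the cartilage type XI collagen, and COL27A1 were called in no comparison. COL27A1 had log2 values from -0.40 to -0.17 in the lines and passed in InsG with DESeq2 (adjusted p = 0.03).

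**Figure D3:**
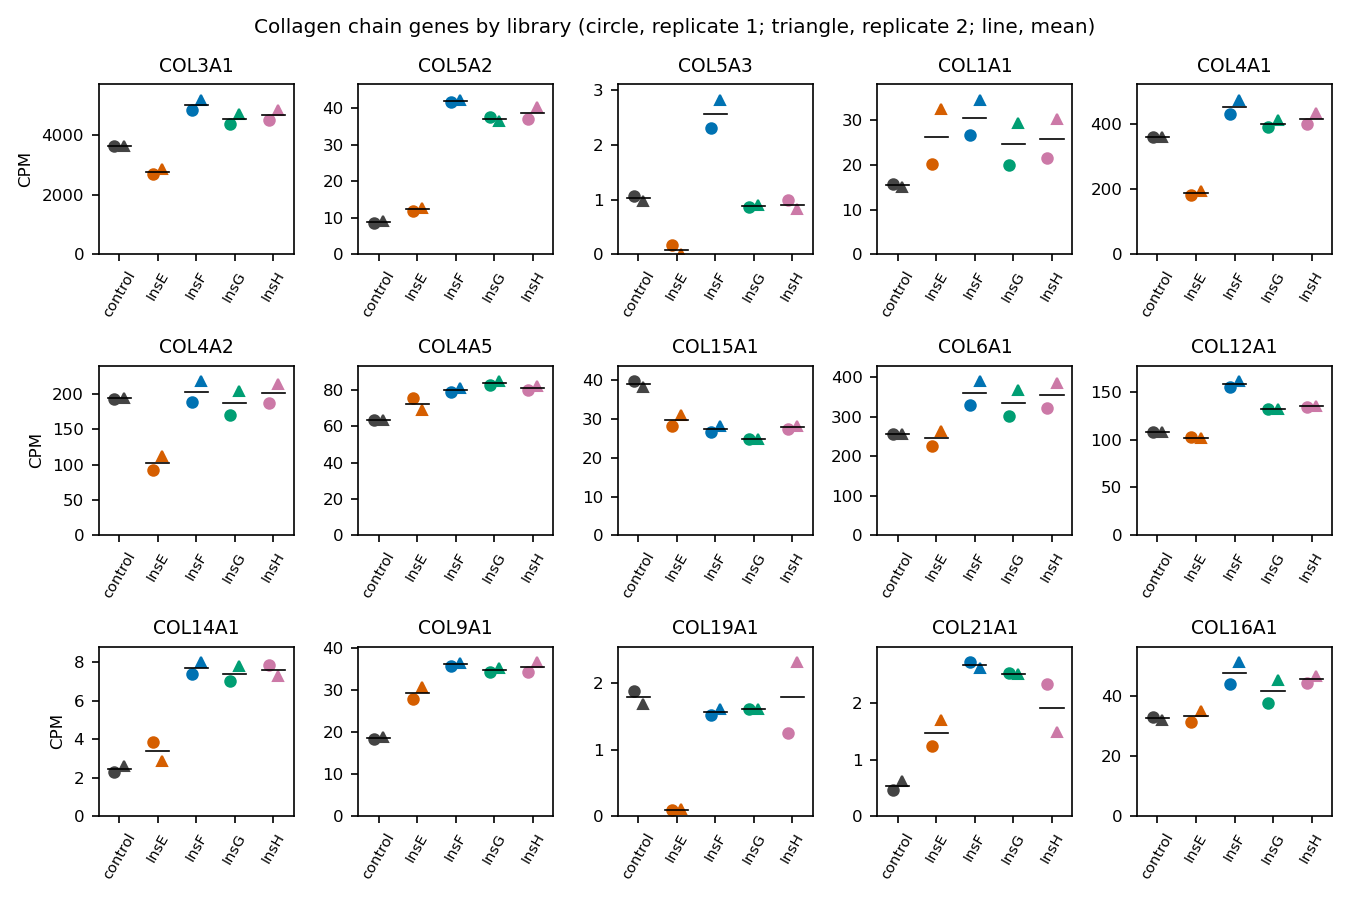
CPM of 15 collagen chain genes in each library, with circles and triangles for replicates 1 and 2 and a line at the mean of each group. InsE lies below control for COL3A1, COL4A1, COL4A2, COL5A3 and COL19A1, between control and the other lines for COL5A2 and COL9A1, and all lines lie below control for COL15A1.

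Among the basement membrane chains, COL4A1 and COL4A2, which form the ubiquitous type IV trimer and share the start region printed above, fell together in InsE. COL4A1 was 359 CPM in both control libraries, 182 and 192 in InsE, 429 and 473 in InsF, 389 and 410 in InsG, then 398 and 433 in InsH. Both InsE libraries lay far below control, and the other lines lay above it. Its log2 change was -0.94 ± 0.07 in InsE (edgeR adjusted p = 2.1e-05), 0.33 ± 0.07 in InsF (edgeR adjusted p = 0.006) and 0.21 ± 0.07 in InsH (edgeR adjusted p = 0.048). The rises were lost without control replicate 1 (0.0559 and 0.207) or 2 (0.0523 and 0.199), and that of InsH also without InsH replicate 2 (0.223) or any 1 of InsH replicate 1 and the InsE and InsG libraries (0.053 to 0.0557).

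COL4A2 was 194 CPM in both control libraries, 91.8 and 112 in InsE, 189 and 219 in InsF, 171 and 205 in InsG, then 188 and 214 in InsH. InsE lay below every other library, and the other lines spanned control. COL4A2 fell in InsE, at -0.94 ± 0.12 on the log2 scale (edgeR adjusted p = 0.00059), and was at 0.07, -0.05 and 0.05 in InsF, InsG and InsH. COL4A4, a chain of the type IV network of the kidney filter, was 4.56 and 4.11 CPM in control, 2.18 and 1.38 in InsE and 2.82 to 4.31 in the others. It changed by -1.20 ± 0.21 in InsE (edgeR adjusted p = 0.0035; limma adjusted p = 0.103 on log2(TPM + 1) and 0.0718 on log2(TPM + 0.1)), and by -0.53 ± 0.15 for the mean of the lines (edgeR adjusted p = 0.028), a call lost without control replicate 1 (0.259) or 2 (0.116) or InsF replicate 1 (0.052).

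COL4A5 and COL4A6, the head-to-head pair on chromosome X, rose in InsF, InsG and InsH. COL4A5 was 63.4 and 63.7 CPM in control, 75.5 and 69.0 in InsE, 79.0 and 81.3 in InsF, 82.9 and 85.1 in InsG, then 80.0 and 82.1 in InsH. All line libraries were above control. COL4A5 rose by 0.19 ± 0.06 in InsE (edgeR adjusted p = 0.049) and by 0.33 to 0.40 in the others (edgeR adjusted p = 0.0018 to 0.004). The call in InsE was lost with DESeq2 (0.147) and without any 1 library but InsE replicate 2 (0.0592 to 0.328), and those of InsF and InsH without control replicate 1 (0.0509 and 0.0512). On log2(TPM + 1) COL4A5 passed in no line (limma adjusted p = 0.317 to 0.991), with an effective length of 3018 to 4012 bases between libraries. COL4A6 was 0.671 and 1.08 CPM in control, 0.896 and 1.16 in InsE, and 1.60 to 2.32 in the others, so that InsE overlapped control. Its log2 rise was 1.33 ± 0.30 in InsF, 1.19 in InsG and 1.16 in InsH (edgeR adjusted p = 0.013, 0.024 and 0.03), all lost without control replicate 1 (0.126, 0.191 and 0.218) and with DESeq2 (0.075, 0.125 and 0.159). They were also lost without InsF replicate 1 (0.0701), InsG replicate 1 (0.0876) or 2 (0.0712) and InsH replicate 2 (0.139), each in its own line.

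COL15A1, whose product lies between basement membrane and fibrils, was the one tested collagen gene to fall in every line. It was 39.9 and 38.2 CPM in control, 28.3 and 31.1 in InsE, 26.7 and 28.3 in InsF, 24.95 and 24.97 in InsG, then 27.5 and 28.2 in InsH. No line library reached control. In log2 units the change was -0.41 ± 0.07, -0.51, -0.65 and -0.49 in InsE, InsF, InsG and InsH (edgeR adjusted p = 0.0033, 0.0009, 0.00029 and 0.0015), and the first missed the threshold on log2(TPM + 1) (limma adjusted p = 0.0713). COL18A1, the source of endostatin, was called in no comparison. It shares 1401 exon bases with the gene SLC19A1 on the opposite strand, and without a known strand setting their reads cannot be told apart.

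For the beaded filament chains, COL6A1 rose in InsF and InsH, with InsG close to the threshold, and its neighbour COL6A2, 93.0 kb away on chromosome 21, was called in no comparison. COL6A1 was 255 and 256 CPM in control, 226 and 264 in InsE, 329 and 390 in InsF, 301 and 368 in InsG, then 321 and 386 in InsH. InsE spanned control and the other 3 lines lay above it. The log2 change was 0.49 ± 0.13 in InsF and 0.47 in InsH (edgeR adjusted p = 0.021 and 0.031), calls lost without control replicate 1 (0.114 and 0.147) or 2 (0.104 and 0.135) or replicate 2 of the line itself (0.117 and 0.159). In InsG it was 0.39 (edgeR adjusted p = 0.058), called with DESeq2 (0.00673), with library sizes alone (0.0315), without a filter, in both fits to log2 TPM (limma adjusted p = 0.023 and 0.0223) and without 1 of 5 line libraries (0.0448 to 0.0479). COL6A2 was 63.7 and 63.9 CPM in control and 54.1 to 70.6 CPM in the lines. COL6A3, which the secreted type VI molecule usually contains, had only 7 and 5 counts in control and 4 to 30 in the line libraries. It rose by 1.64 ± 0.41 in InsG (edgeR adjusted p = 0.022), a call lost without control replicate 1 (0.143) or 2 (0.099) or InsG replicate 1 (0.0827) or 2 (0.0654).

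Of the FACIT chains, COL9A1, COL14A1 and COL21A1 had the largest rises and COL19A1 the largest fall. COL9A1, a chain of type IX collagen, was 18.3 and 18.7 CPM in control, 27.9 and 30.6 in InsE, 35.7 and 36.5 in InsF, 34.3 and 35.3 in InsG, then 34.2 and 36.6 in InsH. InsE lay between control and the other lines without overlap. The log2 change was 0.65 ± 0.07 in InsE (edgeR adjusted p = 0.00034) and 0.91 to 0.96 in the others (edgeR adjusted p = 2.3e-05 to 4.5e-05). Its partner chains COL9A2 and COL9A3 were called in no comparison.

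COL14A1, whose product binds decorin and fibrils, was 2.28 and 2.62 CPM in control, 3.87 and 2.86 in InsE, and 7.01 to 8.01 in the others. InsF, InsG and InsH lay well above the rest. They rose by 1.66 ± 0.16, 1.59 and 1.64 (edgeR adjusted p = 0.00012, 0.0002 and 0.00018), while InsE was at 0.53 ± 0.17 (edgeR adjusted p = 0.056). Its libraries did not overlap control, and COL14A1 was called in InsE with library sizes alone and with the replicate block (edgeR adjusted p = 0.0379 and 0.0269). COL12A1, a related chain made under mechanical load, was 108 CPM in both control libraries, 102 in both of InsE, 155 and 162 in InsF, 132 in both of InsG and 135 in both of InsH. In CPM, InsE lay just below control and the others above it. The log2 change was 0.55 ± 0.05 in InsF, 0.29 in InsG and 0.32 in InsH (edgeR adjusted p = 6.8e-05, 0.0032 and 0.002) and -0.08 in InsE (edgeR adjusted p = 0.26). Over the alternatives the value in InsE ran from -0.11 to 0.27, so its direction depends on the measure. The effective length of COL12A1 was 6498 and 6699 bases in InsE and 8634 and 8336 in control. COL16A1 was 33.1 and 32.1 CPM in control, 31.4 and 35.0 in InsE, 43.8 and 51.3 in InsF, 37.6 and 45.3 in InsG, then 44.4 and 46.7 in InsH. It rose by 0.54 ± 0.11 in InsF (edgeR adjusted p = 0.0061) and by 0.48 in InsH (edgeR adjusted p = 0.013). The call in InsF was lost without control replicate 2 (log2 change 0.52) and in both fits to log2 TPM (limma adjusted p = 0.0581 and 0.0569). That in InsH was lost without either control library or without InsH replicate 2.

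COL21A1, a FACIT chain of blood vessel walls, was 0.470 and 0.616 CPM in control, 1.25 and 1.69 in InsE, 2.73 and 2.62 in InsF, 2.52 and 2.51 in InsG, then 2.33 and 1.49 in InsH. All line libraries exceeded control, and InsE and InsH overlapped. The log2 change was 1.40 ± 0.31, 2.32 ± 0.29, 2.23 and 1.87 in InsE, InsF, InsG and InsH (edgeR adjusted p = 0.011, 0.00055, 0.00081 and 0.0026). The call in InsE was lost with DESeq2 (adjusted p = 0.0579) and without control replicate 1 (log2 change 1.20). Those of InsG and InsH missed the threshold on log2(TPM + 1) (limma adjusted p = 0.0619 and 0.0694). COL19A1, a minor chain found near basement membrane zones, had 56 and 33 counts in control, 3 and 1 in InsE, 44 and 24 in InsF, 69 and 18 in InsG, then 29 and 28 in InsH. InsE stood apart and the other lines spanned control at 1.25 to 2.32 CPM beside 1.69 and 1.88. The log2 change in InsE was -4.11 ± 0.45 (edgeR adjusted p = 0.00025; -0.63 on log2(TPM + 1)), and over the pair of libraries control was 18.4 times InsE, with a 95% counting interval of 6.92 to 68.8. COL19A1 lies 5.08 kb from COL9A1, which rose in InsE, and shares 70 exon bases with LMBRD1 on the opposite strand, which had 7676 counts in all beside 305 for COL19A1.

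Among the transmembrane chains, COL23A1 was 3.99 and 3.59 CPM in control, 2.18 and 2.12 in InsE and 3.29 to 4.39 in the others. It changed by -0.82 ± 0.18 in InsE (edgeR adjusted p = 0.0099). The call was lost with DESeq2 (adjusted p = 0.104) and in both fits to log2 TPM (limma adjusted p = 0.0556 and 0.0526). It was also lost without control replicate 1 (log2 change -0.73) or InsE replicate 1 (-0.84). COL13A1, COL7A1 (the anchoring fibril chain of skin) and COL26A1 were called in no line against control. They had 180, 235 and 213 counts over all 10 libraries. The log2 change was 0.53 to 0.83 in the lines for COL13A1 and -0.78 to -0.01 for COL7A1. For COL26A1 it was -0.69 in InsE and 0.50 to 0.71 in the others. At such counts the lack of a call does not show that they were unchanged.

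The difference between InsE and the other lines was tested directly, without the control libraries in the contrast. The main fit took the line libraries as independent, although those with the same replicate number deviated together. In it 17 of the 29 tested genes were lower in InsE (24.2% of all tested genes were called, 11.4% higher and 12.8% lower). None was called higher by edgeR or by DESeq2, which called 13 lower. At an unadjusted p under 0.05, edgeR had 2 higher, COL7A1 and COL15A1, and 18 lower. With the 8 line libraries alone and the replicate number as a block, COL15A1 (0.13) and COL27A1 (0.13) were called higher (edgeR adjusted p = 0.0219 and 0.00011) beside 17 lower. In that fit 7711 of the 15554 tested genes were called, 4026 higher and 3685 lower. Without InsE replicate 1, the deeper InsE library, fewer collagen genes were called, as were fewer of all tested genes.

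COL19A1 (-3.97 ± 0.42), COL5A3 (-3.37 ± 0.47), COL5A2 (-1.68 ± 0.07) and COL4A1 (-1.17 ± 0.06) had 4 of the 5 largest differences of InsE from the mean of InsF, InsG and InsH on the log2 scale (edgeR adjusted p = 0.00016, 0.00083, 7.8e-07 and 1.8e-06). The size for COL5A3, with 5 and 0 counts in InsE, ran from -7.77 without InsE replicate 1 to -0.45 on log2(TPM + 1), and that for COL19A1, with 3 and 1, from -4.12 to -0.64. COL3A1 differed by -0.78 ± 0.05, COL12A1 by -0.47 ± 0.04, COL14A1 by -1.10 ± 0.14 and COL4A2 by -0.96 ± 0.10 (edgeR adjusted p = 8.1e-06, 5.6e-05, 0.00048 and 0.00018). In COL26A1, a chain of testis and ovary, this contrast alone passed (-1.29 ± 0.29, edgeR adjusted p = 0.011), and the call was lost without InsE replicate 1 (0.0921) or 2 (0.0572) and with DESeq2 (0.116). On log2(TPM + 1) and log2(TPM + 0.1) COL26A1 was at -0.16 and -0.36 (limma adjusted p = 0.346 and 0.374). The calls of COL4A6 (0.236), COL6A1 (0.0944), COL9A1 (0.134), COL16A1 (0.118), COL21A1 (0.371) and COL23A1 (0.0583) were lost without InsE replicate 1, and those of COL4A5 (0.297) and COL4A6 (0.0554) without InsE replicate 2. COL4A5 was called without InsE replicate 1 and COL21A1 without InsH replicate 2, and each was lost without any other 1 library.

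Any difference among the 4 lines was called for 13 of the 29 tested genes (13.2% of all tested genes). COL5A2 (edgeR adjusted p = 6.4e-06), COL4A1 (1.6e-05), COL3A1 (7.2e-05) and COL12A1 (0.00023) led, while COL15A1 (0.19) and COL1A1 (0.76) did not pass. With the 8 line libraries alone and the replicate block the count was 21, COL1A1 and COL15A1 included (edgeR adjusted p = 0.00012 and 0.0129), beside 8599 of all genes. With the block over all 10 libraries it was 16, with COL26A1 (0.0476), COL4A5 (0.038) and COL4A6 (0.0373) added. Without InsE replicate 1, InsE replicate 2 or either control library it was 8 each, and COL3A1, COL4A1, COL4A2, COL5A2, COL5A3 and COL14A1 were called under every alternative run.

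For the mean of the 4 lines against control, 12 tested collagen genes were higher and 3 lower (27.6% of all tested genes were called, 13.1% higher and 14.5% lower), with a median log2 change of 0.13. COL21A1 (1.95 ± 0.26), COL5A2 (1.73 ± 0.07), COL14A1 (1.35 ± 0.14), COL9A1 (0.86 ± 0.06) and COL12A1 (0.27 ± 0.04) were higher, and COL15A1 (-0.51 ± 0.05) was lower, under every alternative run. COL19A1 (-1.13 ± 0.24, edgeR adjusted p = 0.0079) was also lower, with -4.11 in InsE and -0.20 to -0.05 in the other lines. That call was lost without control replicate 1 (0.0976), with DESeq2 (0.0684), with merged controls (0.0511), and on log2(TPM + 1) and log2(TPM + 0.1), at -0.15 and -0.60 (limma adjusted p = 0.478 and 0.246). The calls of COL1A1, COL3A1, COL4A4, COL6A1, COL6A3 and COL16A1 were lost without either control library (0.115 to 0.259), that of COL4A6 (0.97 ± 0.26) without control replicate 1 (0.251), and that of COL4A5 (0.32 ± 0.05) on log2(TPM + 1) (limma adjusted p = 0.385). The count was 7 with the controls merged, and it was also lower without either control library. The SE of this mean takes the line libraries as independent, and their shared deviations may make it too small.

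Chains that assemble into 1 molecule can be set against each other by length-corrected level. The TPM of COL5A1 over that of COL5A2 was 11.3 and 9.12 in control, 7.24 and 7.96 in InsE, 2.25 and 3.07 in InsF, 2.33 and 2.98 in InsG, then 2.53 and 3.40 in InsH. The ratio was thus lower in InsF, InsG and InsH than in InsE or control. For COL6A1 over COL6A2 it was 3.48 and 3.51 in control, 3.66 and 3.56 in InsE and 4.37 to 5.22 in the other lines. COL9A1 over COL9A3 was 3.34 and 3.03 in control, 5.25 in both InsE libraries and 5.29 to 7.41 in the others. For COL4A1 over COL4A2, which ran from 1.67 to 2.13, it was 1.75 in both control libraries, 1.78 and 1.67 in InsE, and 1.87 to 2.13 in the others. These ratios carry no test, and TPM rests on RSEM's effective length, which ran from 737 to 3404 bases for COL21A1 between libraries.

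**Figure D4:**
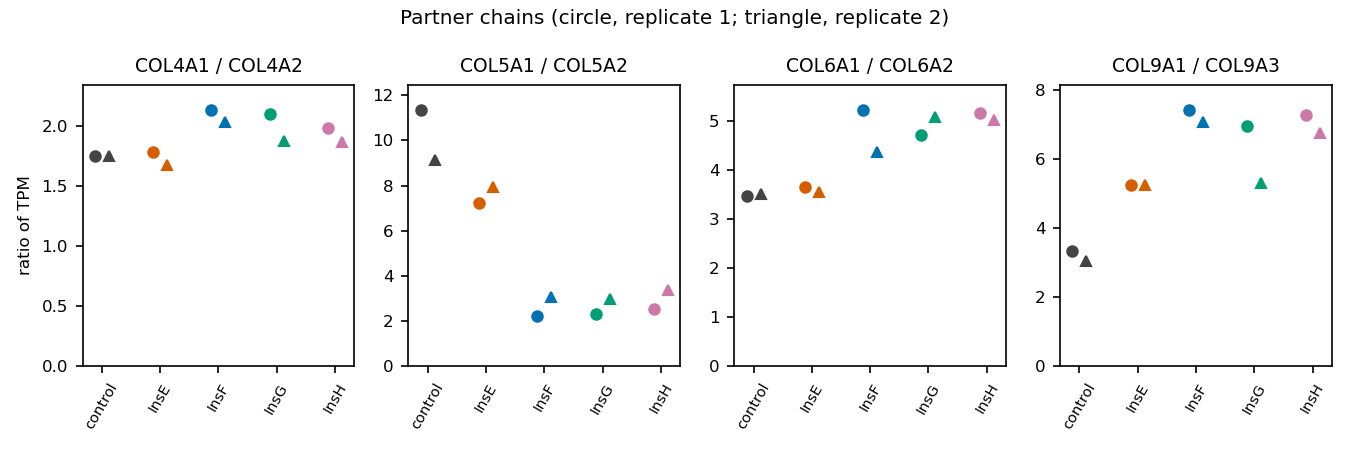
Ratio of the TPM of partner chains in each library, with circles and triangles for replicates 1 and 2. COL5A1 over COL5A2 lies at 9.12 and 11.3 in control and at 2.25 to 3.40 in InsF, InsG and InsH, while COL4A1 over COL4A2 stays between 1.67 and 2.13 in all 10 libraries.

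Genes that make, process, bind or degrade collagen were taken from lists of named enzymes and receptors. Against control, the mean of the lines had 5 of 19 tested genes for folding and modification higher and 2 lower, 36.8% beside the 27.6% called over all tested genes (13.1% higher and 14.5% lower). P3H3, a prolyl 3-hydroxylase, was 23.3 and 24.4 CPM in control, 7.78 and 8.46 in InsE, 6.32 and 6.12 in InsF, 5.65 and 6.80 in InsG, then 5.82 and 6.88 in InsH. All line libraries lay far below control, at -1.85 ± 0.08 (edgeR adjusted p = 8.7e-07). Its relatives P3H2 (0.64 ± 0.06) and P3H1 (0.34 ± 0.04) rose, as did COLGALT1 (0.39 ± 0.04), which adds galactose to hydroxylysine (edgeR adjusted p = 4.6e-05, 0.00048 and 0.00022). P3H2 missed the threshold in the 2 fits to log2 TPM (limma adjusted p = 0.0534 and 0.0526). Of 7 tested processing genes 2 rose, a share of 28.6%, close to the 27.6% over all genes. They were TLL1 (1.27 ± 0.26), which trims procollagen, and PCOLCE2 (0.17 ± 0.04), its enhancer (edgeR adjusted p = 0.006 and 0.0086). Both calls were lost without control replicate 1 (0.0596 and 0.127) or 2 (0.0799 and 0.102).

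The cross-linking list, the lysyl oxidases, had all 5 members called in InsE, 2 higher and 3 lower (23.2% over all genes), and 2 of 5 in each of InsF, InsG, InsH and the mean of the lines (22.3%, 20.3%, 18.4% and 27.6% over all genes). In the mean of the lines LOXL4 rose (0.53 ± 0.06) and LOXL2 fell (-0.61 ± 0.07; edgeR adjusted p = 0.00015 and 0.00029). Of 9 tested receptors, the lines' mean had 3 higher and 1 lower, beside 13.1% and 14.5% of all genes. DDR2, a receptor tyrosine kinase for fibrillar collagen, was 32.5 and 31.9 CPM in control, 61.4 and 55.2 in InsE, 85.8 and 79.4 in InsF, 88.8 and 82.3 in InsG, then 89.1 and 81.2 in InsH. InsE lay between control and the other lines, as COL5A2 and COL9A1 did, and the mean change was 1.26 ± 0.07 (edgeR adjusted p = 2.9e-06). ITGA11, an integrin chain for fibrillar collagen, rose by 0.83 ± 0.11 (edgeR adjusted p = 0.00058). ITGA1 (0.51 ± 0.11) and ITGA10 (-1.10 ± 0.33) passed in the full set (edgeR adjusted p = 0.0083 and 0.032) and were lost without control replicate 2 (0.12 and 0.225).

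The 4 tested degradation genes all passed against control for the lines' mean, 2 higher and 2 lower, where 27.6% of all genes were called. The interstitial collagenase MMP1 was 36.2 and 39.0 CPM in control, 3.14 and 4.13 in InsE, 13.2 and 11.1 in InsF, 10.7 and 10.5 in InsG, then 11.4 and 9.78 in InsH, with InsE lowest. Its mean change was -2.17 ± 0.08, and the collagen-cleaving protease CTSK changed by -0.76 ± 0.13 (edgeR adjusted p = 3.9e-07 and 0.0025). MMP2, a gelatinase, rose by 0.39 ± 0.04 and the neutrophil collagenase MMP8 by 0.79 ± 0.17 (edgeR adjusted p = 0.0002 and 0.0069), the latter lost without control replicate 2 (0.0986).

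**Figure D5:**
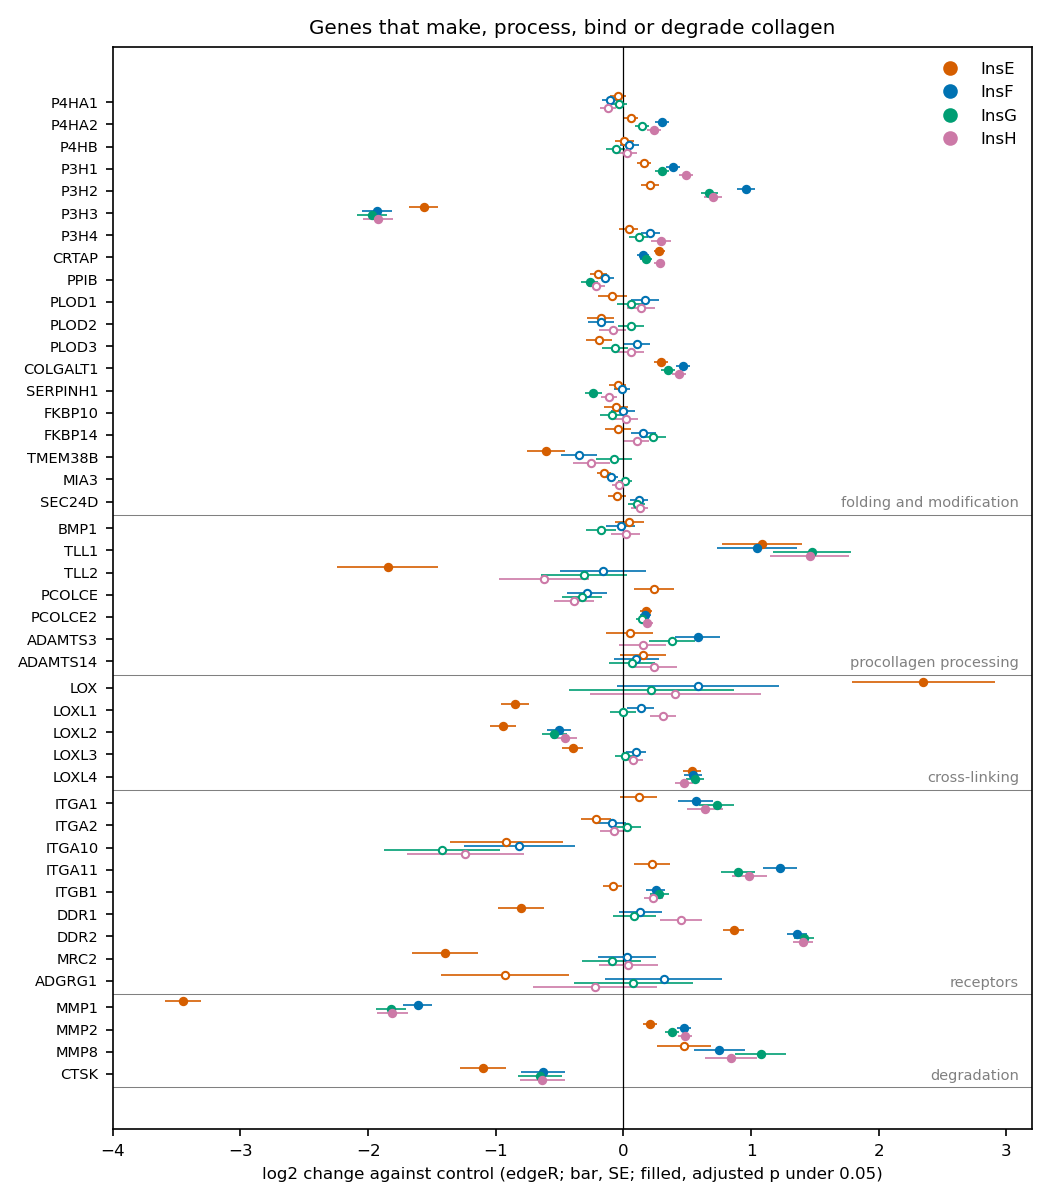
log2 change against control of the tested genes of the 5 lists of collagen-related genes in each line, with bars for the SE and filled points for adjusted p under 0.05 (edgeR). P3H3 and MMP1 lie below -1.5 in all 4 lines and DDR2 lies above 0.8 in all 4.

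Markers of other cell types also differed between the groups, in both directions. In the fibroblast list of 8, FAP and PI16 were at 0 in all libraries. The summed level was 1103 to 1106 CPM in control and 1203 to 1338 CPM in the lines, with 2 of its 5 tested genes higher and 2 lower in the mean of the lines (13.1% and 14.5% over all genes). The smooth muscle list, with DES at 0 throughout, summed to 425 to 436 CPM in control, 379 to 416 in InsE, 569 to 626 in InsF, 448 to 503 in InsG and 495 to 550 in InsH. Of its 4 tested genes, ACTA2 was higher (0.67) and SMTN lower (-0.30) in the mean of the lines (edgeR adjusted p = 5.9e-05 and 0.011), and MYH11 and LMOD1 were not called. In InsE, InsF, InsG and InsH ACTA2 was at 0.10, 1.11, 0.67 and 0.81, and SMTN at -0.30, -0.25, -0.40 and -0.27. The sum thus does not stand for the whole list. The endothelial list summed to 0.551 to 0.565 CPM in control, 0.544 to 0.846 in InsE and 0.911 to 1.55 in the other lines. The blood list summed to 0.415 to 0.504 CPM in control and 0 to 0.655 in InsE. It was 1.34 to 1.51 in InsF, 0.888 to 1.37 in InsG and 0.368 to 0.983 in InsH. No tested member of either list was called. These sums lie near the limit that a count of 0 in 1 library allows for a single gene, 0.0701 to 0.317 CPM. The epithelial list summed to less in every line, at 225 to 233 CPM in control and 161 to 214 CPM in the lines, with 1 of its 3 tested genes called, KRT18 (-0.35, edgeR adjusted p = 0.0092). Of the GIST list, 6 of 8 were lower in the mean of the lines (14.5% over all genes), KIT by -0.80 on the log2 scale (edgeR adjusted p = 2.8e-06). The part of these markers in the collagen differences was not tested.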

How the data were processed

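RNA sequencing of 10 libraries in 5 groups of 2 was analysed. The authors deposited expected counts, which RSEM estimates for each gene and which are not scaled for library depth. The deposited TPM values are corrected for length and keep no depth. The tools, per the submitters' processing notes, were DESeq2 1.38.3, RSEM 1.3.2 and STAR 2.5.3, on hg38. The strand setting and annotation release were not given in the sources used here. A further table with 10 value columns was not used, since none of its column names matches a label. The members and lists were chosen with earlier results of these data known.

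After rounding to whole numbers, expected counts were tested in R 4.3.3 with edgeR 4.0.16 (quasi-likelihood, robust, TMM, minimum count of 10). All 10 libraries were fitted together over 15554 genes with 5 residual degrees of freedom, two-sided, with Benjamini-Hochberg adjustment and a threshold of 0.05. The SE is the log2 change divided by the square root of F. CPM are scaled by TMM. A count of 0 was read as up to 3 counts, and intervals and limits cover counting error only. Every member is accounted for by name. Genes outside the members were named by rule, up to 4 of each pathway list called in the mean of the lines, with the largest changes. LMBRD1 and SLC19A1 are named for overlap only.

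Whether replicate numbers pair libraries was checked from the correlation of deviations over 12080 genes. It was 0.595 to 0.662 between the lines and 0.023 to 0.074 between control and lines, so the numbers were taken to pair the line libraries only. The main fit held no replicate term and took all libraries as independent, so its p-values leave these shared deviations out. For line against line, the fit of the 8 line libraries with the block takes them in. On simulated counts over 15554 genes for InsE against control, edgeR recovered 64.2%, 80.6% and 95.5% of genes changed 1.5-fold, 2-fold and 4-fold, with 7 false calls. The changed genes left out those of lowest level. Libraries were simulated as independent, with the same spread in control and lines. The real line libraries deviated together and differed more within pairs than control did, so these figures may not hold for them. Alternatives were DESeq2 1.42.0, library sizes alone, other filters, limma 3.58.1 on log2(TPM + 1) and log2(TPM + 0.1), the replicate block, leaving out each library and, added after seeing the data, merged controls and the 8 line libraries alone with the block. Positions are from GENCODE. RefSeq promoters matched 32 of the 44 genes.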

Additional observations from a re-analysis of the deposited data

Results flagged for a closer look

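For 17 of the 29 tested collagen chain genes, the change in InsE differed from the mean change in InsF, InsG and InsH in a test of that difference itself, beside 24.2% of all tested genes. Without InsE replicate 1 the number was lower, as was that over all tested genes. On the log2 scale the difference was -3.97 for COL19A1, -3.37 for COL5A3, -1.68 for COL5A2, -1.29 for COL26A1, -1.17 for COL4A1, -1.10 for COL14A1 and -1.01 for COL4A6. It was -0.96 for COL4A2, -0.89 for COL4A4, -0.80 for COL23A1, -0.78 for COL3A1 and -0.74 for COL21A1. The smaller ones were -0.51 for COL6A1, -0.47 for COL12A1, -0.43 for COL16A1, -0.29 for COL9A1 and -0.17 for COL4A5. All 17 had the lower value in InsE in this edgeR fit. COL19A1 rests on 4 counts in InsE in all and COL5A3 on 5 and 0. Under the alternatives their differences were as small as -0.64 and -0.45. COL21A1 changed sign in both fits to log2 TPM, reaching 0.23. COL26A1 was not called without either InsE library, with DESeq2 or on log2 TPM. No cause was tested.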

How the results depend on the processing

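Over 7 comparisons 93 collagen calls were made, and 44 of them held under every alternative run. Of 1670 values of called genes under an alternative, 1437 stayed called in the same direction, 231 were no longer called and 2 changed sign. These 2 were COL21A1 in InsE against the other lines, at 0.17 with log2(TPM + 1) and 0.23 with log2(TPM + 0.1), where RSEM's effective length of the gene differed between libraries. The collagen count in InsE was 6 and 7 with these TPM fits, and that among the lines was 8 with log2(TPM + 1) and 21 with the 8 line libraries alone and the replicate block. The count for the mean of the lines was 7 with merged controls. Leaving out 1 library gave 9 to 13 in InsE, 8 to 14 in InsF, 8 to 12 in InsG, 7 to 12 in InsH, 7 to 16 for the mean of the lines, 10 to 16 for InsE against the other lines and 8 to 12 among the lines. With the replicate block over all 10 libraries the counts were 15, 15, 15 and 15 in InsE, InsF, InsG and InsH and 17 for the mean, and COL27A1 was then called lower in every line (edgeR adjusted p = 0.0278, 0.00469, 0.000113 and 0.00205). COL1A1 was then called in InsE, InsG and InsH (0.0065, 0.00944 and 0.00634) and COL6A1 in InsG (0.000402), though the numbers did not pair control with the lines. Over all genes, calls fell from 3611, 3461, 3163, 2863 and 4296 in InsE, InsF, InsG, InsH and the mean to 1675, 1625, 1239, 1189 and 1709 with merged controls, and to 1791, 1661, 1329, 1367 and 2236 with log2(TPM + 1). They rose to 5935, 5886, 5769, 5317 and 6679 with the block. Leaving out 1 library gave lowest values of 1405, 1453, 1181, 1112 and 1496. DESeq2 called 2212, 2065 and 1856 in InsF, InsG and InsH and 2479 of 3762 in InsE against the other lines. Among the lines 2055 became 3660 without a filter, 984 with log2(TPM + 1) and 729 to 1903 without 1 library. Depth limits COL5A3, COL6A3, COL7A1, COL11A2, COL13A1, COL19A1 and COL26A1, each with under 70 counts in every library.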
